A study of Mus musculus with 6 samples.

Results

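The Dlk1-Dio3 domain of mouse chromosome 12 carries a long row of microRNA genes, and these genes were followed in mandibular arches of embryos with and without Tbx1. The Tbx1 protein is a T-box transcription factor needed for normal development of the pharyngeal arches. The set was a list of 45 microRNA genes lying between Dlk1 and Dio3. A gene was measured where a probe set carried its symbol and no other, and the probe set with the highest mean over all 6 arrays stood for it. This gave 38 of the 45 genes, each read by 1 probe set, among 19938 genes in all. The other 7 genes (Mir770, Mir493, Mir433, Mir758, Mir654, Mir544 and Mir410) had no such probe set and are not analysed here. Probe sets were chosen by mean level only, with no threshold. The domain itself was selected on the genotype contrast, since it was put forward with the changes on these same arrays already known. The counts of changed members are therefore a description of these arrays, and the main ones are given beside the same share over all genes.

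Both groups were E9.5 mandibular arches, the lower jaw part of the first pharyngeal arch, from mice of strain C57BL/6. The wild-type group was Tbx1+/+ and the null group Tbx1-/-, with 3 Affymetrix Mouse Gene ST 1.0 arrays for each, made from 300 ng of total RNA per labelling. No other allele or agent is named for either group, and the kind of Tbx1 allele is not described. Tissue of 3 embryos was combined within each genotype because single arches give little RNA, and whether each array had a pool of its own is not said. Each value is a log2 level per probe set, so a difference of 1 is a doubling of signal.

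The domain is imprinted. The protein-coding genes Dlk1, Rtl1 and Dio3 are expressed from the paternal chromosome, and the long non-coding RNAs Meg3, Rian and Mirg, with the microRNAs and small nucleolar RNAs among and within them, are expressed from the maternal one. The non-coding genes all lie in the same orientation and are widely held to be made as one long transcription unit that starts at Meg3. A microRNA is cut from a hairpin in its precursor by Drosha with Dgcr8 and then by Dicer1, and the mature strand pairs with messenger RNAs mainly through its seed, bases 2 to 8. In other tissues the distal cluster is known for neuronal expression, and the microRNAs antisense to Rtl1 for cutting the Rtl1 transcript.

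The members the results turn on have the following mature sequences, from RefSeq GRCm38.p6, written 5′ to 3′ with the seed in capitals. All come from the plus strand of chromosome 12. Mir377 and Mir134 passed the adjusted threshold, Mir380 and Mir300 had the largest changes, and Mir329 and Mir382 lay just outside the threshold.
mmu-miR-377-5p: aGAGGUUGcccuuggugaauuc
mmu-miR-377-3p: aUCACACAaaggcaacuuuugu
mmu-miR-134-5p: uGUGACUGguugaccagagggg
mmu-miR-134-3p: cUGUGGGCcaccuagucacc
mmu-miR-380-5p: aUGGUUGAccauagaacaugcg
mmu-miR-380-3p: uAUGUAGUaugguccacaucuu
mmu-miR-300-5p: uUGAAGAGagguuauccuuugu
mmu-miR-300-3p: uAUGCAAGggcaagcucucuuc
mmu-miR-329-5p: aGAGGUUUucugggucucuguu
mmu-miR-329-3p: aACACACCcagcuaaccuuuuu
mmu-miR-382-5p: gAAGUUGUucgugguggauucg
mmu-miR-382-3p: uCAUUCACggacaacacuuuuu

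Next are 4 members with changes near 0 that the results set against their neighbours; Mir666 and Mir409 lie inside the distal cluster, Mir136 in the group usually called anti-Rtl1 and Mir370 within Rian.
mmu-miR-666-5p: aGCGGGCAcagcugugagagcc
mmu-miR-666-3p: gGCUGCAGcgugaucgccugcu
mmu-miR-409-5p: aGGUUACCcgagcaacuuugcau
mmu-miR-409-3p: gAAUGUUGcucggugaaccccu
mmu-miR-136-5p: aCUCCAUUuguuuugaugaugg
mmu-miR-136-3p: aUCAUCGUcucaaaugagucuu
mmu-miR-370-5p: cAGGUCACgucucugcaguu
mmu-miR-370-3p: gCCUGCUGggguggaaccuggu

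All 38 members had at least 1 mature sequence in that table, 72 in all, which held 70 different seeds. For Mir376c, Mir487b, Mir539 and Mir485 only 1 strand was listed, so seeds of their other strands were not compared. Among the listed sequences 2 seeds were shared between members. The first is shared by Mir379 and Mir411, and the second by Mir376b and Mir376c, and both pairs are printed so that their changes can be set side by side.
mmu-miR-379-3p: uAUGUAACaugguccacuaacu
mmu-miR-411-3p: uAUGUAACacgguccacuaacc
mmu-miR-376b-5p: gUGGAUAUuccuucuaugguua
mmu-miR-376c-5p: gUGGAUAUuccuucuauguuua
The log2 change, Tbx1 null minus wild type, was 0.46 for Mir379 (SE 0.15, 95% confidence interval 0.11 to 0.81) and 0.35 for Mir411 (SE 0.07, 0.19 to 0.52). For Mir376b it was 0.44 (SE 0.13, 0.15 to 0.74), and for Mir376c 0.37 (SE 0.10, 0.14 to 0.61). Where the probes lie in each precursor is not stated, and 1 probe set per gene does not tell the mature strands apart, so the values are levels of the gene's RNA and not of a mature microRNA.

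Array medians lay between 7.98 and 8.04, and no array was a copy of another. Tbx1 itself read 11.64, 11.36 and 11.31 in wild type and 9.48, 9.39 and 9.63 in the null, a change of -1.94 (SE 0.10, adjusted p = 0.000684). Among all 19938 genes 17 were called higher (0.0853%) and 15 lower (0.0752%) in the null at an adjusted p under 0.05. This split moved to 12 higher and 22 lower when the arrays were quantile-normalised again and to 16 and 30 when they were centred on their medians. The arches showed the mesenchymal markers of their label (Prrx1, Twist1, Hand2, Dlx5 and others), with a mean over 12 markers of 11.35 to 11.68 on every array. The mean of 3 Y-linked genes was 8.57, 9.07 and 9.85 on the wild-type arrays and 9.58, 9.28 and 5.73 on the null arrays, and so differed within each genotype.

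Most of the microRNA genes read higher in the Tbx1 null arches. The change was above 0 in 36 of the 38 members and below 0 in 2, with a median of 0.31 and a range of -0.04 to 0.75. Over all genes tested the median change was -0.01 and 46.45% were above 0. A total of 26 members reached an unadjusted p under 0.05 in the higher direction, or 68.4% of them, and 0 in the lower direction; over all genes 5.5% were higher and 3.94% lower by the same rule. The 3 null arrays lay above the 3 wild-type arrays without overlap in 24 members (63.2%), against 8.36% of all genes, and in the opposite direction in 0 members, against 7.06%. Only 2 members, Mir377 and Mir134, passed an adjusted p of 0.05.

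**Figure D1:**
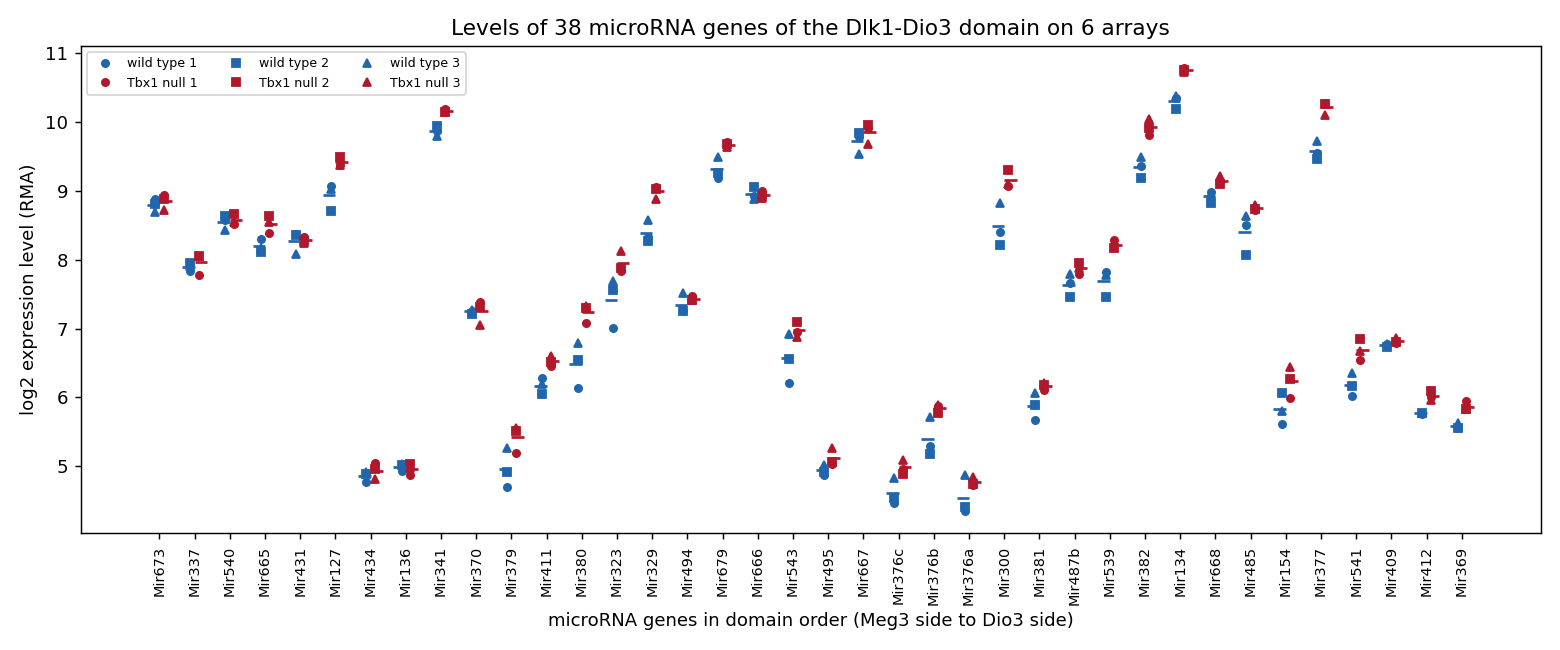
Log2 level of each of the 38 measured microRNA genes on each array, in domain order from the Meg3 side to the Dio3 side; blue marks are the 3 wild-type and red marks the 3 Tbx1 null arrays, and short bars are group means. The red marks lie above the blue ones without overlap in 24 genes. Levels of different genes come from different probes and cannot be ranked against each other.

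The changes were not spread evenly along the domain. The distal cluster, which runs from Mir379 to Mir410 on the Dio3 side, held 28 of the measured members. Its median change was 0.37, 27 of the 28 were above 0, 23 (82.1%) were higher at an unadjusted p under 0.05 and 21 (75%) were higher without overlap. The shares over all genes were 46.45%, 5.5% and 8.36%. The 10 members on the Meg3 side fell into 3 groups. Between Meg3 and Mir431 the median was 0.06 over 4 members, in the anti-Rtl1 group it was 0.05 over 4, and within Rian the values were 0.29 and 0.00. These are position groups by common usage; in RefSeq the span of the Rtl1 gene model covers all 8 members of the first 2 groups. In each of these 3 groups 1 member had an unadjusted p under 0.05, namely Mir665, Mir127 and Mir341. The rank correlation between a member's change and its place in the order was 0.323 over 38 genes; neighbours share arrays and may share a precursor, so this is a description. The difference between the distal cluster and the other members was not tested.

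**Figure D2:**
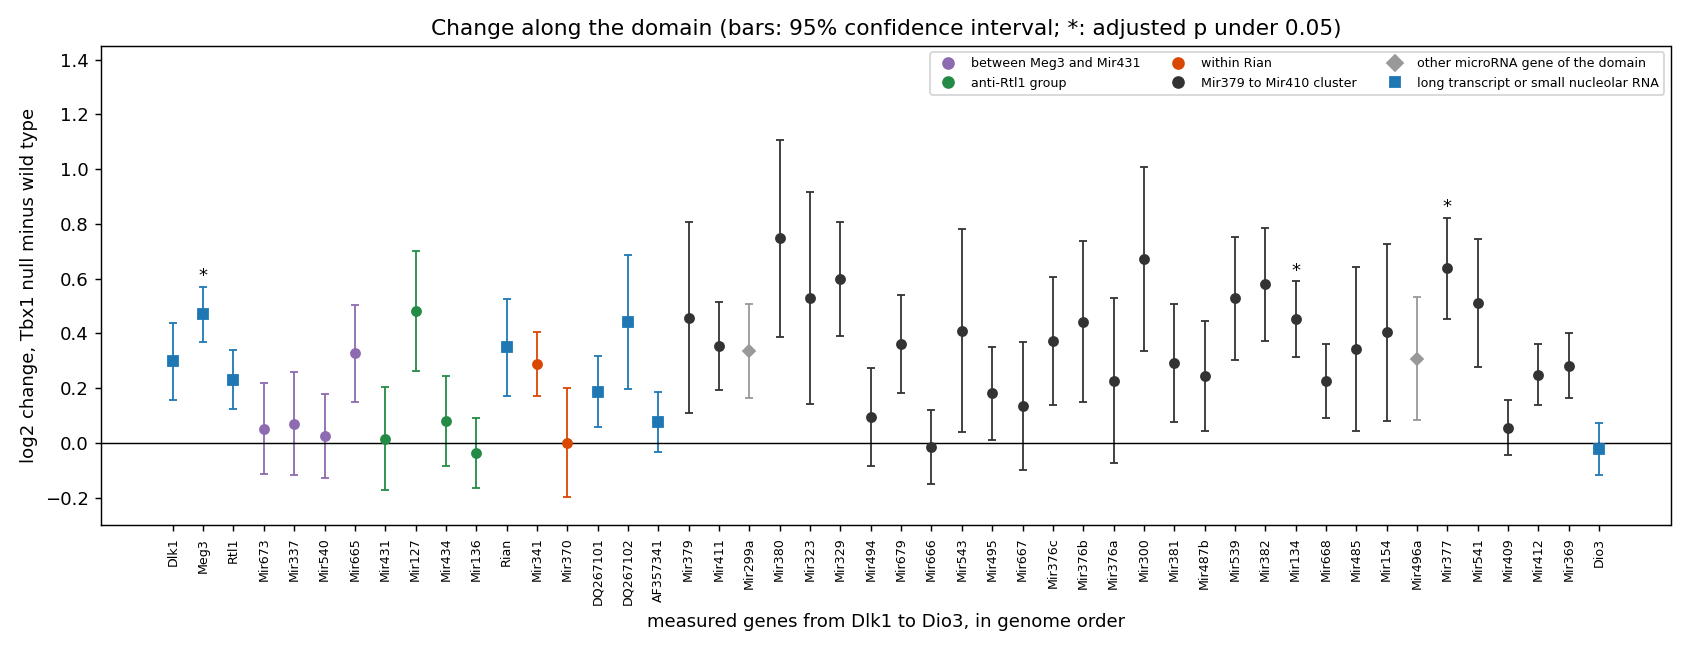
Log2 change, Tbx1 null minus wild type, for the measured genes from Dlk1 to Dio3 in genome order; points are estimates over 3 against 3 arrays, bars are 95% confidence intervals, colours give the position group and a star marks an adjusted p under 0.05. The 27 cluster members above 0 form the run on the right of the plot, while most members between Meg3 and Rian have intervals that include 0.

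In the distal cluster, Mir377 (probe set 10398432) had the lowest p of all members. Its wild-type arrays read 9.54, 9.46 and 9.72, and the null arrays 10.28, 10.26 and 10.10. Every null array was above every wild-type array, and Mir377 rose by 0.64 (SE 0.08, 95% confidence interval 0.45 to 0.82), or 1.56-fold, with an adjusted p of 0.0422. Mir134 (probe set 10398422), whose mature form is known in neurons for limiting dendritic spine size through Limk1, read 10.35, 10.18 and 10.37 in wild type. Its null arrays read 10.78, 10.76 and 10.72, close to each other and apart from the wild type. It rose by 0.45 (SE 0.06, 0.32 to 0.59), or 1.37-fold, with an adjusted p of 0.0466. Neither call held when certain arrays were left out: Mir134 passed in 0 of the 6 fits that leave out an array, with adjusted p of 0.0808 to 0.232, and Mir377 passed only without wild type 3.

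The next members lay just outside the threshold. Mir329 read 8.33, 8.27 and 8.58 in wild type and 9.06, 9.03 and 8.88 in the null, a change of 0.60 (SE 0.09) with an adjusted p of 0.0651. Mir382 read 9.35, 9.18 and 9.49 against 9.82, 9.90 and 10.04, a change of 0.58 (SE 0.09) with an adjusted p of 0.0675. In both genes every null array lay above every wild-type array.

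The largest differences came with a wide spread in wild type. For Mir380 the wild-type arrays read 6.13, 6.54 and 6.80 and the null arrays 7.08, 7.30 and 7.33. The difference of 0.75 (SE 0.15, 0.39 to 1.11), or 1.68-fold, had an adjusted p of 0.157, and wild type 3 lay closest to the null arrays. Mir300 read 8.41, 8.22 and 8.82 against 9.07, 9.30 and 9.09, a difference of 0.67 (SE 0.14, adjusted p = 0.173), again with wild type 3 the highest of its group. These 2, with Mir377 and Mir329, were the members past 1.5-fold; over all genes 36 (0.181%) exceeded this size in the higher direction.

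Of the further members of the cluster, Mir369 and Mir412 had smaller differences with little spread among arrays. Mir369 read 5.56, 5.55 and 5.63 in wild type and 5.94, 5.83 and 5.83 in the null, a difference of 0.28 (SE 0.05, adjusted p = 0.120). Mir412, next to it, read 5.76, 5.78 and 5.77 against 6.00, 6.10 and 5.97, a difference of 0.25 (SE 0.05, adjusted p = 0.132). The wild-type arrays of Mir412 were nearly identical, so a small difference stood clear of the spread. Mir539 differed by 0.53 (SE 0.10, adjusted p = 0.120), Mir541 by 0.51 (SE 0.10, adjusted p = 0.137) and Mir411 by 0.35 (SE 0.07, adjusted p = 0.137), each without overlap. Mir323 and Mir543 had differences of 0.53 and 0.41 but standard errors of 0.17 and 0.16, and the arrays of Mir543 overlapped.

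The rest of the cluster filled the range between these sizes. Among the genes whose arrays did not overlap, Mir485 was at 0.34 (SE 0.13), Mir381 at 0.29 (SE 0.09), Mir487b at 0.24 (SE 0.09), Mir668 at 0.23 (SE 0.06) and Mir495 at 0.18 (SE 0.07). Mir668 read 8.98, 8.83 and 8.96 in wild type and 9.14, 9.09 and 9.21 in the null, a narrow but complete separation. In Mir379, the first gene of the cluster, wild type 3 at 5.27 lay above the lowest null array at 5.20, and in Mir154, at 0.40 (SE 0.14), wild type 2 at 6.07 lay above 1 null array at 6.00. All 7 had an unadjusted p under 0.05 in limma and none passed the adjusted threshold.

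A few genes inside the cluster differed little. Mir666 read 8.92, 9.06 and 8.89 in wild type and 8.997, 8.93 and 8.89 in the null, a difference of -0.02 (SE 0.06, -0.15 to 0.12), with Mir679 at 0.36 (SE 0.08) on one side of it and Mir543 at 0.41 on the other. Mir409 read 6.78, 6.74 and 6.78 against 6.79, 6.81 and 6.86, a difference of 0.06 (SE 0.04, -0.04 to 0.16). Its neighbour Mir541 was at 0.51 and Mir412 at 0.25. Mir494 was at 0.09 (SE 0.08) and Mir667 at 0.13 (SE 0.10), both with overlapping arrays. Mir376a, whose precursor is a known target of adenosine-to-inosine editing, was at 0.23 (SE 0.13, -0.07 to 0.53) and had 1 of its wild-type arrays, at 4.88, above all null arrays. Mir376a and Mir376c gave signals among the lowest of the table (percentiles 1.67 and 2.49 of all genes), where a difference is easily understated.

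On the Meg3 side, the 4 measured genes of the anti-Rtl1 group (Mir431, Mir127, Mir434 and Mir136) had unlike values. Mir127 read 9.07, 8.71 and 9.02 in wild type and 9.37, 9.49 and 9.37 in the null, a difference of 0.48 (SE 0.09, 0.26 to 0.70, adjusted p = 0.137) without overlap. Mir431, at 8.38, 8.35 and 8.08 against 8.33, 8.28 and 8.25, and Mir136, at 4.94, 5.02 and 5.04 against 4.88, 5.03 and 4.97, had overlapping arrays. The interval of Mir431, -0.17 to 0.20, leaves out a difference of the size seen for Mir127. That of Mir136 ran from -0.17 to 0.09, but its signal was dim. A difference is easily understated there, so the interval cannot be set against Mir127. Mir434 was at 0.08 (SE 0.07, -0.08 to 0.24). Mir434 and Mir136 lay at the 3.33 and 4.06 percentiles of level.

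Between Meg3 and Mir431, Mir665 read 8.30, 8.12 and 8.16 in wild type and 8.38, 8.63 and 8.55 in the null, a difference of 0.33 (SE 0.08, 0.15 to 0.50, adjusted p = 0.204). Its neighbours Mir673, Mir337 and Mir540 were at 0.05, 0.07 and 0.03, with standard errors of 0.07 to 0.08 and overlapping arrays. Within Rian, Mir341 read 9.87, 9.94 and 9.80 against 10.19, 10.14 and 10.15, a difference of 0.29 (SE 0.05, 0.17 to 0.41, adjusted p = 0.108). Mir370, in the same gene, read 7.26, 7.22 and 7.27 against 7.39, 7.32 and 7.04, and its interval ran from -0.20 to 0.20. One null array was the lowest of the 6 and another the highest.

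The long transcripts of the domain give the same comparison with other probes. Meg3 (probe set 10398326), the maternally expressed RNA at the start of the non-coding genes, read 11.62, 11.66 and 11.66 in wild type and 12.14, 12.14 and 12.08 in the null. It rose by 0.47 (SE 0.04, 0.37 to 0.57), with an adjusted p of 0.0142, and its wild-type arrays were nearly identical. Without wild type 1, wild type 2, Tbx1 null 1 or Tbx1 null 2 the adjusted p was 0.0510, 0.116, 0.0844 or 0.144, and the call was lost. Rian, host of Mir341 and Mir370, was at 8.34, 8.11 and 8.24 against 8.56, 8.69 and 8.48, a difference of 0.35 (SE 0.08, adjusted p = 0.177). Mirg, in whose gene model 6 members from Mir154 to Mir369 lie, and Dio3os had no probe set of a single symbol.

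The paternally expressed genes were not alike. Dlk1, a membrane protein of the Notch ligand family that holds back differentiation, read 13.12, 13.22 and 13.27 against 13.58, 13.50 and 13.42, a difference of 0.30 (SE 0.06, adjusted p = 0.150). Rtl1, a retrotransposon-derived gene, was at 0.23 (SE 0.05, adjusted p = 0.143), and its arrays did not overlap. Dio3, which inactivates thyroid hormone, was at -0.02 (SE 0.04, -0.12 to 0.07). Of the genes before Dlk1, Begain was at 0.11 (SE 0.06) and Wdr25 at 0.03 (SE 0.07), both with overlap. Thus 4 of the 7 measured long transcripts had an unadjusted p under 0.05, all higher (57.1%, against 5.5% of all genes). Of the 7, 1 passed the adjusted threshold, against 0.0853% of all genes in the higher direction. These genes belong to the same domain that was selected on this contrast. Further genes of the domain that are not in the list of 45 were looked up after its values were seen. The microRNA genes Mir299a and Mir496a were at 0.34 (SE 0.07) and 0.31, and the small nucleolar RNAs DQ267101, DQ267102 and AF357341 at 0.19, 0.44 and 0.08.

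The sequence around the start of Meg3 is shown because the non-coding transcripts start there and Meg3 passed the threshold. The window of 300 bases spans a RefSeq start (chr12:109540746-109541045, plus strand, GRCm38.p6), with a match to the cAMP response element TGACGTCA in capitals at base 194 of the window.
Meg3 start, first window: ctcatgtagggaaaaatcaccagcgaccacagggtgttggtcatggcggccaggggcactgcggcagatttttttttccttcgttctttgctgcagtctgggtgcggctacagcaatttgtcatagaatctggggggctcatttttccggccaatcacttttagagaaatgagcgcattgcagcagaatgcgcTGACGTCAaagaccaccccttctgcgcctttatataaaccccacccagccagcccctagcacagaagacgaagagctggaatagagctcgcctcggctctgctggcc
A second RefSeq start of Meg3 (chr12:109545148-109545447, plus strand) has matches to the T-box core GGTGTGA, read as TCACACC on the other strand, in capitals at bases 106 and 152.
Meg3 start, second window: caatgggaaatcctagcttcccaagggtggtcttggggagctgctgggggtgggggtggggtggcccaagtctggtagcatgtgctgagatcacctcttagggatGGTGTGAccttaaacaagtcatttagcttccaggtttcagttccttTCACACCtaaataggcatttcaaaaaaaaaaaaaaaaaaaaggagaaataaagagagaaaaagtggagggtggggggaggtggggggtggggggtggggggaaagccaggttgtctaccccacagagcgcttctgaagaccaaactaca
Both motifs were searched on both strands and do not overlap each other. The T-box core was found in 1307 of 32851 windows of this length (3.98%) and the cAMP response element in 588 (1.79%). Neither was found in the windows of Rian, Mirg and Dlk1. A match is a run of letters and no measurement of binding.

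The other microRNA genes of the array were read as a yardstick, being genes of the same kind read on the same arrays. Those named Mir and a number, not among the 45, with a mean level within the members' range of 4.66 to 10.53, numbered 214. Their median level was 6.60, against 7.72 for the members, so the 2 sets were matched by range only. Their median change was 0.01, with 120 above 0 and 94 below. At the same unadjusted p 25 (11.7%) were higher and 4 lower, against 5.5% and 3.94% of all genes. The share of higher genes thus lay above that of all genes here too. In limma 0 passed the adjusted threshold. The 23 that did not overlap in the higher direction make up 10.7%, beside 63.2% of the domain's genes and 8.36% of all genes. Leaving out Mir299a, Mir496a and the host transcripts ending in hg, a choice made after seeing the data, left 208 genes with a median of 0.01, of which 22 were higher and 4 lower.

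Differences of like size also occurred at single genes elsewhere. Mir717 read 8.62, 8.94 and 8.97 in wild type and 9.37, 9.33 and 9.48 in the null, a difference of 0.55 (SE 0.10, adjusted p = 0.105). The host transcript Mir100hg was at 0.75 (SE 0.25) and Mir181b-1 at 0.61 (SE 0.26), both with overlapping arrays and both lowest on wild type 1. On the lower side the largest were Mir363 at -0.32 (SE 0.22), Mir129-1 at -0.28 (SE 0.09) and Mir146b at -0.19 (SE 0.05), with adjusted p of 0.732, 0.344 and 0.267.

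**Figure D3:**
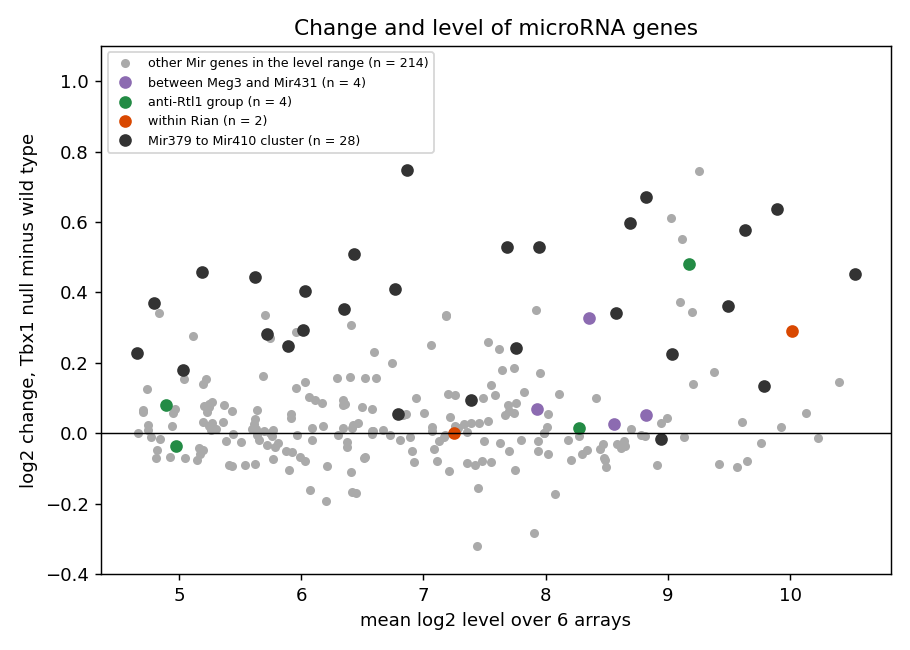
Log2 change, Tbx1 null minus wild type, against the mean log2 level over 6 arrays for the 38 members (coloured by position group) and for 214 other microRNA genes in the same level range (grey); each point is 1 gene. The grey points centre near 0 at every level, and most of the 28 distal-cluster genes lie above them.

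Members of the distal cluster also varied together among the wild-type arrays. Wild type 3 was the highest wild-type array in 23 of the 38 members, and in 20 of the 28 in the distal cluster. The median deviation from the wild-type mean over the cluster was -0.07 on wild type 1, -0.06 on wild type 2 and 0.16 on wild type 3, where 25 of 28 genes were above their mean. Among the 214 other microRNA genes the median deviation on the same array was -0.03, and 77 of them were above their mean there. The step was therefore not confined to the cluster. Mir19a read 8.95, 9.36 and 9.57 on the wild-type arrays, Mir19b-1 8.93, 9.06 and 9.42, and Mir205 7.32, 7.72 and 8.20. The wild-type arrays of Meg3 showed no such step, at 11.62, 11.66 and 11.66. Among the null arrays the cluster's median deviations ran only from -0.03 to 0.02. A null array was the highest of all 6 in 33 of the 38 members, a count for which no share over all genes was taken. Without wild type 3 the median change of the members was 0.38.

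**Figure D4:**
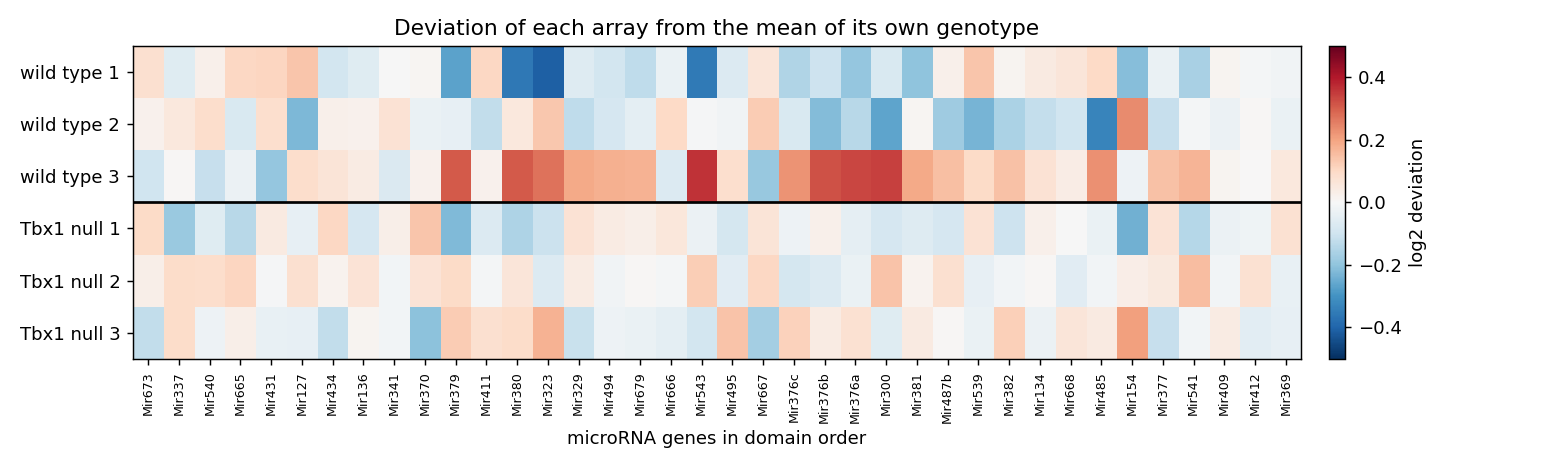
Deviation of each array from the mean of its own genotype on the log2 scale, for the 38 members in domain order; red is above and blue below the mean, and the line separates the 3 wild-type from the 3 Tbx1 null arrays. The row of wild type 3 is red across most of the distal cluster, with a median of 0.16, while the rows of the null arrays are pale.

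Across the 6 arrays the deviations of 2 cluster members had a median correlation of 0.375 over all pairs, against -0.02 among the 10 members on the Meg3 side and 0.07 among other microRNA genes. These points share the same 6 arrays, so the values describe the arrays only.

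The members also differed in base composition. Hairpins of the members with an unadjusted p under 0.05 had a median GC content of 43.4% (26 genes), those of the other members 52.6% (11 genes) and those of other microRNA genes 49.7% (178 genes). Change and GC content had a rank correlation of -0.329 over 37 members and -0.300 over the 178 other microRNA genes, so lower GC content went with a more positive change in both sets. Within the distal cluster it was -0.116 over 27 genes. On hairpins below 45% GC, a value chosen after seeing the data, the median change was 0.41 in 17 members and 0.07 in 44 other microRNA genes. On those at or above it the medians were 0.25 in 20 members and 0.01 in 134 other genes. The part of base composition in the change was not tested. Change and mean level had a rank correlation of 0.160 over 38 members.

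Of 24 measured genes that make and use microRNAs, 2 were higher (8.33%, against 5.5% of all genes) and 1 was lower by the unadjusted rule, 0 passed the adjusted threshold in limma, and the median change was 0.03. The null arrays lay above the wild type without overlap in 8 of them (33.3%, against 8.36% of all genes) and below in 1. Drosha was at -0.01 and Dgcr8, its partner, at 0.02, Xpo5, the export receptor of precursors, at -0.03, and Dicer1 at 0.05. The 3 with the lowest p were Ago4, an Argonaute protein, at 0.24 (SE 0.05, adjusted p = 0.177), Adarb1, an RNA-editing enzyme, at -0.13 (SE 0.05, adjusted p = 0.423), and Tut4, a terminal uridylyltransferase, at 0.13 (SE 0.05, adjusted p = 0.470).

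Of 20 regulators of imprints and of the domain 1 was higher and 0 were lower by the same rule, a share of 5% that is close to the 5.5% of all genes; the median was 0.00, and 0 passed the adjusted threshold. In 4 of the 20 (20%, against 8.36% of all genes) the null arrays were higher without overlap. The gene past the unadjusted rule was Jarid2, a Polycomb partner, at 0.20 (SE 0.04, adjusted p = 0.177). Zfp57, the zinc-finger protein that holds imprints, was at 0.11 (SE 0.05) and its partner Trim28 at -0.01. Mef2c, of the family that drives the distal cluster in neurons, was at -0.32 (SE 0.19, adjusted p = 0.656).

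Marker genes of several cell types moved with genotype in the same arrays. The mean of 12 mandibular mesenchyme markers was 11.35 to 11.51 in wild type and 11.62 to 11.68 in the null, with 11 of 12 above 0. The mean of 8 heart markers was 8.17 to 8.30 against 8.44 to 8.81, with 8 of 8 above 0, and that of 6 epithelial markers 11.08 to 11.15 against 11.29 to 11.37, with 6 of 6 above 0. For 5 Hox genes of the second arch and hindbrain it was 7.62 to 7.66 against 7.94 to 8.11, with 5 of 5 above 0. Hoxa2, at 1.11 (SE 0.21), and Hoxb2, at 0.63 (SE 0.09), weigh heavily in that mean. The arrays of Hoxa3, Hoxb1 and Hoxb3 overlapped. The mean of 8 primitive erythroid markers went the other way, 10.59 to 10.67 against 10.30 to 10.35, with 0 of 8 above 0. The mean was lower without overlap also for 9 muscle progenitor and muscle markers, 8.33 to 8.45 against 8.10 to 8.20 with 3 of 9 above 0. Among these 9, Lhx2 had by far the largest change, at -1.56 (SE 0.08), and weighs heavily in the mean. Ttn, Des and Acta1 were above 0, at 0.44, 0.23 and 0.04, so the markers did not fall as a group. For 4 markers of migratory crest and glia the mean was also lower without overlap, 8.90 to 9.53 against 8.63 to 8.82 with 1 of 4 above 0. Sox10, at -0.85 (SE 0.31), and Ngfr, at -0.70 (SE 0.06), weigh heavily in it. Foxd3 was at -0.15 and Erbb3 at 0.00, both with overlapping arrays. The means of 7 endothelial and 6 macrophage markers overlapped, at 10.52 to 10.56 against 10.38 to 10.60 and at 6.90 to 7.02 against 6.81 to 6.97. The part of these cell types in the change of the domain was not tested, and in bulk RNA fewer cells of a type and less RNA per cell cannot be told apart. The mean over 11 markers of neural tube and neurons was 7.61 to 7.85 in wild type and 7.52 to 7.67 in the null. These ranges overlapped, and 3 of 11 markers were above 0. Single markers differed, with Dcx at 0.16 (SE 0.05) and Neurod1 at -0.61 (SE 0.25). Their part in the change of the domain was not tested either.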

How the data were processed

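RNA of 3 wild-type and 3 Tbx1 null samples was read on Affymetrix Mouse Gene ST 1.0 arrays. The deposited log2 values, 1 per probe set, came from RMA as run by the authors; the submitters' processing notes name Affymetrix Expression Console 1.1. RMA makes array distributions alike and so hides any shift that most genes share. Its summary level, filters and genome build were not given in the sources used. Of 35556 probe sets, 21789 had 1 symbol, 1621 several and 12146 none in the platform annotation; those with 1 symbol gave 19938 genes, 999 with several probe sets. Entrez IDs of 21698 probe sets matched RefSeq GRCm38.p6, and 0 symbols changed. The table had 0 columns of other samples.

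Null and wild-type arrays entered 1 two-sided fit without covariates, by lmFit and eBayes of limma 3.58.1 (R 4.3.3), with Benjamini-Hochberg adjustment over all genes and a threshold of 0.05. Changes are null minus wild type, with the fit's SE and 95% confidence interval; the median SD within a genotype was 0.06 and 3 arrays per genotype limit precision. Nothing says that each array had a pool of its own, so p-values measure only the spread between these arrays. The mean of 3 Y-linked genes was 9.58, 9.28 and 5.73 on the null arrays, so these were not all repeats of the same RNA. How much of the spread is technical is not known. Members, lists and tests were chosen with earlier results of these data known. Named were members past the threshold, the 12 of lowest p, the 3 lowest and 3 highest in level, the 5 with the most negative change, extremes of each position group, the long transcripts, and the 3 largest changes each way among other microRNA genes; neighbours were added for comparison. The fit was tested on simulated data. Alternatives were other scalings, level filters, variance models, probe-set choices, arrays left out and a block on replicate number.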

Additional observations from a re-analysis of the deposited data

How the results depend on the processing

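The median change of the members kept its direction under every alternative run and lay between 0.28 (centred on the array median, and quantile normalisation again) and 0.38 (without wild type 3); leaving out each array gave 0.28 to 0.38. In the distal cluster 27 or 28 of 28 were above 0 in each setting that kept all 38 members. Over the fits that leave out an array, 33 members stayed above 0 and 19 kept an unadjusted p under 0.05 in all 6. No share over all genes was taken for these 2 counts. The number of members higher with such a p was 20 to 27 per fit, beside 4.04% to 6.96% of all genes. The first filter on level left 23 members, 15 higher with such a p, beside 6.66% of the genes it kept. The second left 14 members, 10 higher with such a p, beside 8.14%. The cause of the lower counts is that fewer members were tested.

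The adjusted calls depended on the setting, and the cause was not tested. Members called higher numbered 0 to 3 when arrays were left out, 0 with every probe set tested, 4 with an intensity trend and robust variances (Mir329 and Mir382 added) and 17 with array weights; they numbered 0 with a replicate block. The replicate block left 2 genes higher and 4 lower among all genes. Leaving out arrays gave 0 to 12 higher and 3 to 10 lower, centring 30 lower, the trend 57 and 39, array weights 226 and 108, and every probe set 1 and 3. Nothing states whether replicate numbers pair the arrays. Deviations of same-numbered arrays from their genotype means had correlations of -0.045, 0.260 and 0.149, and not every array correlated best with its own number. Deviations from means of 3 arrays depend on each other, so these values cannot decide whether the arrays were paired. Meg3 had an adjusted p of 0.0398 to 0.144 without an array, 0.0827 with the block and 0.0687 with every probe set.

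The direction of genes near 0 was not stable, and the cause was not tested. With quantile normalisation again Mir370 was at -0.0097, Mir431 at -0.0261, Mir540 at -0.0178 and Wdr25 at -0.0189. With centring Mir370 was at -0.0261, Mir431 at -0.0115 and Mir540 at -0.0012, and the median of other microRNA genes at -0.0145. With array weights Mir431 was at -0.0321, Mir540 at -0.023 and Wdr25 at -0.0694. Leaving out each array in turn gave -0.0681 to 0.1025 for Mir370, -0.0809 to 0.0693 for Mir431, -0.0314 to 0.0685 for Mir540, -0.0504 to 0.0343 for Mir666, -0.0714 to 0.0055 for Mir136 and -0.0253 to 0.0950 for Wdr25. Dim signals (Mir376a, Mir376c, Mir434, Mir136) limit how small a change could be seen.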
